A study of Mus musculus with 2 samples.

Results

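Retinoic acid is the active acid form of vitamin A. Cells make it from retinol in 2 oxidations, the last of which is carried out by the retinaldehyde dehydrogenases Aldh1a1, Aldh1a2 and Aldh1a3. It acts through the nuclear receptors Rara, Rarb and Rarg, which bind DNA together with a retinoid X receptor such as Rxra or Rxrb. The 10 genes described here are those 8 together with Rdh10, which oxidises retinol to retinaldehyde, and Dhrs3, which reduces retinaldehyde back to retinol. They were taken by name from 15623 genes listed in at least 1 library, and were chosen with earlier results of these data known. All 10 were found, of which 9 were listed in both libraries and Aldh1a3 was listed only in the library of stimulated cells.

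The libraries came from C57BL/6 mice, wild type and aged 6 to 8 weeks, whose peritoneal macrophages were lavaged 4 to 5 days after the injection of 4% thioglycolate. The adherent cells, starved in 0.5% FBS, were left nontreated (NT) or were stimulated with interleukin-4 (IL-4) for 6 h. IL-4 is the Th2 cytokine that drives M2 polarization, and the purpose of the comparison was to find genes that it regulates. Each of the 2 groups held 1 library, the number of mice behind each was not given in the sources used here, and no value below could be set against the spread between replicates. Another field of the labels gives bone marrow as the tissue, whereas the source field and the methods give peritoneal macrophages, and the latter was used. The totals were 11035641 expected counts for NT and 11250099 for IL-4. All 10 macrophage markers examined, such as Cd68, were listed in both libraries. These elicited cells should be told apart from the resident peritoneal macrophages whose identity depends on retinoic acid and Gata6.

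Of the 10 genes, 4 rose with IL-4 (Aldh1a2, Aldh1a3, Rarb and Dhrs3) and 0 fell. The background was 4.07% of 15593 tested genes called higher and 6.28% called lower, or 10.4% in either direction. A call required a log2 ratio (IL-4 over NT) of 0.75 or more in size, together with an exact binomial p of 0.05 or less and an adjusted value (Benjamini-Hochberg) of 0.5 or less. The test compares the reads of these libraries and not the conditions. Of the 6 genes that were not called, Rara, Rarg and Rxrb had intervals wholly below 0, whereas those of Aldh1a1, Rdh10 and Rxra spanned 0. The 10 genes had a median log2 ratio of -0.03, and all tested genes had the same median of -0.03. In bulk RNA, a change in the number of cells that carry a transcript and a change in its amount per cell cannot be told apart.

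The promoters of the 3 called genes that had an entry in the RefSeq promoter table are shown, because retinoic acid receptors and the IL-4-activated factor Stat6 act by binding DNA. Each line gives the 250 bases before an annotated start of the gene, read 5′ to 3′ along its strand in GRCm38.p6, and capitals mark matches to the motifs searched.
Aldh1a2 (chr9:71215539-71215788, plus strand): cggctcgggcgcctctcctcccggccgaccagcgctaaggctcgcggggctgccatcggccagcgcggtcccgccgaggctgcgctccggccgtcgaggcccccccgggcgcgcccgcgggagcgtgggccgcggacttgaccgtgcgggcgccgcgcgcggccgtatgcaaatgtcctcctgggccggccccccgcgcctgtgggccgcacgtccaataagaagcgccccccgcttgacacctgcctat
Rarb (chr14:16575477-16575726, minus strand): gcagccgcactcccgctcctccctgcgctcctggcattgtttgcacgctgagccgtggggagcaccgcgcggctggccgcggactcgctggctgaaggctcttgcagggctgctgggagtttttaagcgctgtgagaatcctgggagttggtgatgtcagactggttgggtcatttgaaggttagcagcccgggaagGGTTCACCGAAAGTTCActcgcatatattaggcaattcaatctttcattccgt
Dhrs3 (chr4:144892887-144893136, plus strand): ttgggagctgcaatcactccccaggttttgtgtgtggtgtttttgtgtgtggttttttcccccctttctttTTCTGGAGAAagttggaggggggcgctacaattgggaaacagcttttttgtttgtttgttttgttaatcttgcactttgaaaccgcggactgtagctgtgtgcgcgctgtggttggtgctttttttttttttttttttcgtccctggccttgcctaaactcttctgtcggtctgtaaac

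The first motif was DR5, a direct repeat with 5 bases between the repeats, each of which could be AGGTCA or else AGTTCA or else GGGTCA or else GGTTCA, which is a known arrangement for retinoic acid receptors. The others were TTCNNNNGAA and TTCNNNGAA, the spaced palindromes known for Stat6 and for STAT factors in general. Both strands were searched over 300-base windows that ended 50 bases after each start. DR5 was present in 32 of 32851 promoters (0.0974%), and in 1 of 17 promoters of the 8 genes with an entry. That promoter was Rarb, where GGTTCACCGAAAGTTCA lay 53 to 37 bases before the start (chr14:16575513-16575529). A TTCNNNGAA match lay inside the same run of bases, so the matches are not separate. Both repeats of the DR5 match, GGTTCA and AGTTCA, were among those allowed in the search. Since Rarb is also a classical target of retinoic acid, the match could be foreseen, and the share of all promoters is no test of it.

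TTCNNNNGAA was present in 6.95% of all promoters and TTCNNNGAA in 8.30%. The Dhrs3 promoter held the former, TTCTGGAGAA (chr4:144892958-144892967), which fell in the windows of 2 of its starts. Rara held a TTCNNNGAA match at chr11:98939514-98939522. The Aldh1a2 window, of which 77.6% of the bases shown are G or C, held no match. These matches are descriptions of letters in short windows and do not show that a factor was bound.

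Aldh1a2 (gene 19378, chromosome 9, 71215789 to 71296243, GRCm38) encodes the dehydrogenase that makes most retinoic acid in the embryo. It had 98 expected counts in NT and 300 in IL-4. Its exact Poisson 95% intervals were 79.6 to 119 and 267 to 336 counts. Its level rose from 3.92 to 11.75 FPKM (fragments scaled for transcript length and depth). The log2 ratio of its scaled counts was 1.58, or 2.99-fold, with a counting interval of 1.25 to 1.93 on the log2 scale. Of 9925 genes with at least 50 counts in a library, 1.38% had a higher ratio.

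Aldh1a3 (gene 56847, chromosome 7, 66390892 to 66427477), the paralog of the sensory epithelia, was not listed in the NT library and had 28 counts, or 0.72 FPKM, in the IL-4 library. Its ratio to a floor of 3 counts in the NT library was 9.16. The exact interval of its log2 ratio began lower, at 2.80 or 6.97-fold, and had no upper bound. Of the 781 genes not listed in the NT library, 15, Aldh1a3 among them, had 28 or more in IL-4. Aldh1a1 (gene 11668, chromosome 19, 20492583 to 20643463), the paralog of adult liver and many epithelia, had 10 counts in each library, and its interval of -1.45 to 1.39 leaves a change of either sign undetectable at this depth.

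Aldh1a2 therefore held most of the summed level of its family in either library, 89.7% of 4.37 FPKM in NT and 91.0% of 12.91 FPKM in IL-4. Aldh1a1 supplied 10.3% in NT and 3.41% in IL-4, at 0.45 and 0.44 FPKM. The log2 ratio of Aldh1a2 exceeded that of Aldh1a1 by 1.61, with an exact interval of the difference from 0.14 to 3.08 whose width reflects the 10 counts of Aldh1a1. Such differences are exact conditional estimates from rounded counts with none added, so they can depart slightly from the subtraction of the ratios given. The rise in the family sum was thus a rise in Aldh1a2, with a small part from Aldh1a3.

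**Figure D1:**
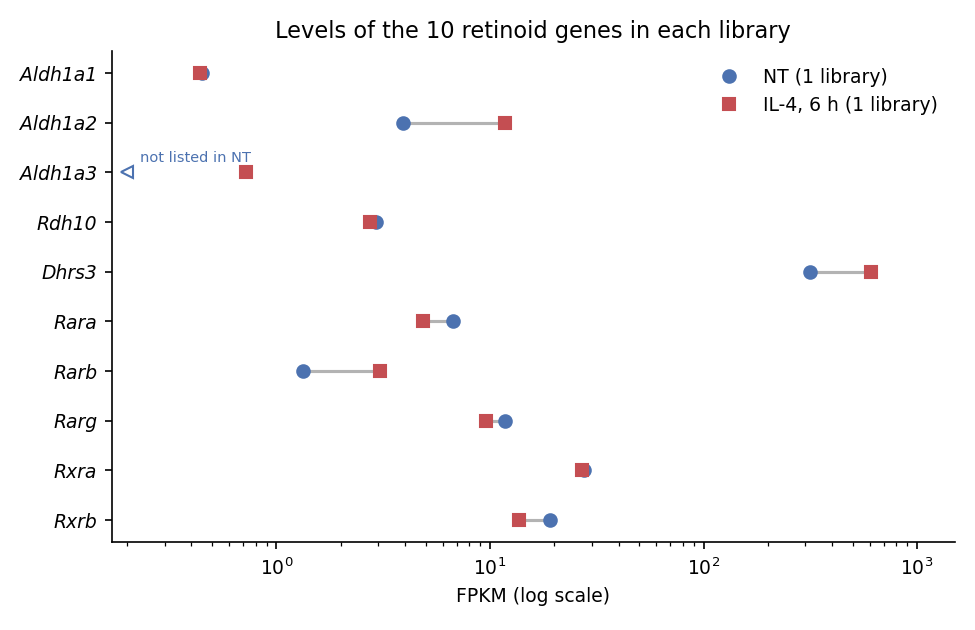
Level of each retinoid gene in FPKM on a log axis, with a circle for the NT library and a square for the IL-4 library, 1 library each. Dhrs3 lay far to the right at 314 and 607 FPKM, Aldh1a2 and Rarb moved right with IL-4, and the open triangle marks Aldh1a3, which was not listed in NT.

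The enzymes that interconvert retinol and retinaldehyde moved apart. Dhrs3 (gene 20148, chromosome 4, 144892534 to 144928209) was the most abundant of the 10 genes in both libraries. It had 5434 counts in NT and 10490 in IL-4, and rose from 314 to 607 FPKM, which took it from rank 205 to rank 120 among all listed genes. Its log2 ratio was 0.92, or 1.89-fold, with a narrow interval of 0.87 to 0.97. The FPKM ratio was slightly larger, 0.95 on the log2 scale, because the weighted length of its 2 transcripts was 1575 bases in NT and 1545 in IL-4.

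Rdh10 (gene 98711, chromosome 1, 16105882 to 16132550), which forms a complex with Dhrs3 and works in the opposite direction, had 74 counts in NT and 71 in IL-4. Its levels were 2.92 and 2.74 FPKM and its log2 ratio was -0.09, with an interval of -0.58 to 0.40. The difference between the log2 ratios of Dhrs3 and Rdh10 was 1.01, with an interval of 0.52 to 1.5. The level of Dhrs3 was 108 times that of Rdh10 in NT and 221 times in IL-4, on the FPKM scale. These are transcript levels, and neither retinol nor retinoic acid was measured.

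Among the retinoic acid receptors, only Rarb was called. Rarb (gene 218772, chromosome 14, 16430839 to 17082331), a receptor whose own gene is a classical target of retinoic acid, had 44 counts in NT and 102 in IL-4. Its Poisson intervals were 32.0 to 59.1 and 83.2 to 124 counts. It rose from 1.34 to 3.06 FPKM, with a log2 ratio of 1.18 (2.26-fold) and an interval of 0.66 to 1.73 that included the threshold. Exons of Rarb overlap those of Top2b and of the antisense gene Gm48162, both on the opposite strand in GENCODE M21, and whether the counting used strand was not stated. Top2b had 932 counts in NT and 708 in IL-4, and Gm48162 was matched to no row of the tables. The part of reads from the opposite strand in the counts of Rarb was not tested.

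Rara (gene 19401, chromosome 11, 98927800 to 98974942), the widely expressed receptor, had 242.76 counts in NT and 179.26 in IL-4, or 6.74 and 4.88 FPKM. Its log2 ratio was -0.46, with an interval of -0.76 to -0.18. Rarg (gene 19411, chromosome 15, 102234938 to 102257522), known mostly from skin, had 359 and 299 counts, or 11.78 and 9.61 FPKM. Its log2 ratio was -0.29, with an interval of -0.52 to -0.07. Neither reached the threshold, and their ratios differed by 0.18 with an interval of -0.19 to 0.54 that spanned 0.

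The log2 ratio of Rarb exceeded that of Rara by 1.65 (interval 1.05 to 2.27) and that of Rarg by 1.48 (0.90 to 2.07). The order of levels nevertheless stayed Rarg, Rara, Rarb in both libraries, with FPKM values of 11.78, 6.74 and 1.34 in NT and 9.61, 4.88 and 3.06 in IL-4. Rara stood 5.03 times above Rarb in NT and 1.59 times above it in IL-4. The share of Rarb in the summed receptor level was 6.75% in NT and 17.4% in IL-4. The sum itself was 19.86 FPKM in NT and 17.55 FPKM in IL-4.

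Rxra (gene 20181, chromosome 2, 27676445 to 27763319), the main retinoid X receptor of myeloid cells, had 1577 counts in each library. Its level was 27.57 FPKM in NT and 27.01 FPKM in IL-4, above every retinoic acid receptor. The log2 ratio was -0.03 with an interval of -0.13 to 0.07, the narrowest among the genes that were not called. Rxrb (gene 20182, chromosome 17, 34031812 to 34038403), its broadly expressed paralog, had 541 counts in NT and 394 in IL-4, or 19.04 and 13.66 FPKM. Its log2 ratio of -0.48, with an interval of -0.68 to -0.30, was below 0 but did not reach the threshold. The ratio of Rxra exceeded that of Rxrb by 0.46 (0.24 to 0.67). Rxrg, the third member of this family, had under 3 counts in either library, and the share of Rxra in the summed level was 59.0% in NT and 66.2% in IL-4.

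**Figure D2:**
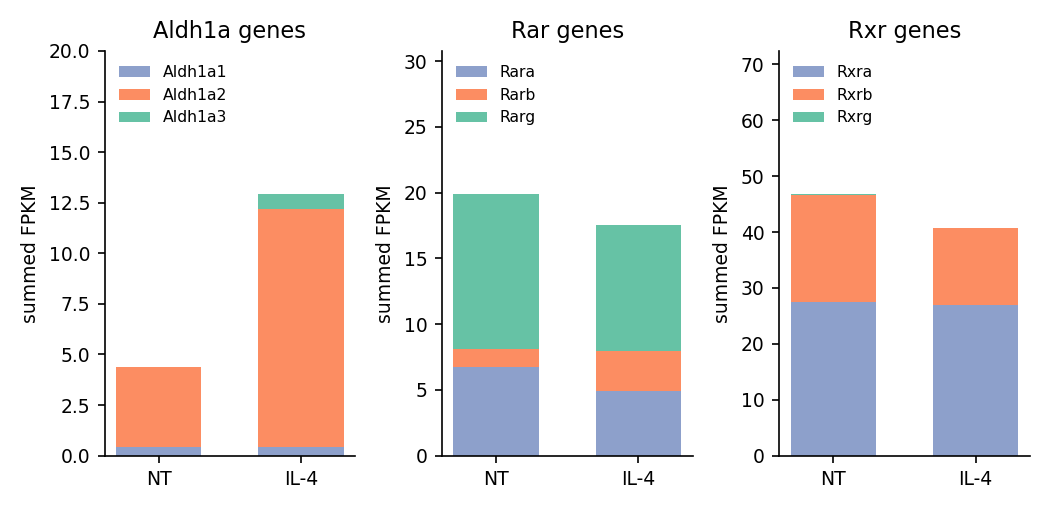
Summed FPKM of each family in the NT and IL-4 libraries, with 1 library per bar and each colour standing for a paralog. The Aldh1a bar grew from 4.37 to 12.91 FPKM through Aldh1a2, while Rarb widened within a receptor sum that went from 19.86 to 17.55 FPKM.

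The ratio of a gene in these libraries varied with transcript length, long transcripts tending to be lower in IL-4, so each ratio was also taken relative to the 200 genes nearest in length. For the called genes the medians of such genes lay between 0.00 and 0.13 on the log2 scale. With them subtracted, the log2 ratios were 1.52 for Aldh1a2, 5.80 for Aldh1a3 and 1.16 for Rarb. That of Dhrs3 was 0.79, still past the threshold, although its interval of 0.74 to 0.84 included it. Rxra, with transcripts of about 5127 bases in NT, moved most, from -0.03 to 0.20 with an interval of 0.10 to 0.30. Those of Rara (-0.44), Rarg (-0.34) and Rxrb (-0.56) remained below 0 and were not called.

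**Figure D3:**
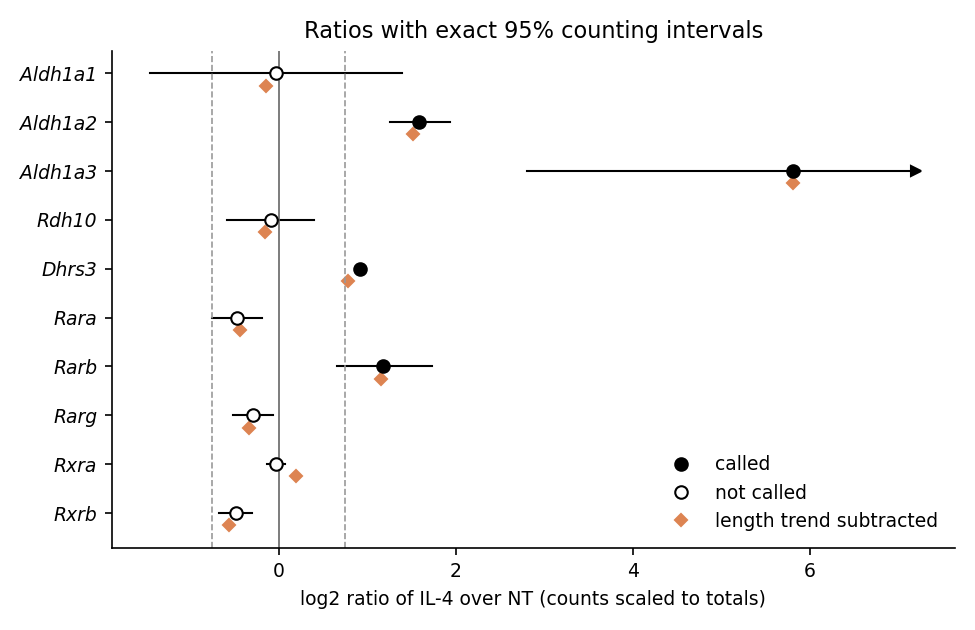
Log2 ratio of IL-4 over NT for each retinoid gene from scaled counts, with exact 95% counting intervals as lines, dashed lines at the threshold of 0.75 and diamonds for the ratio less the length trend. The 4 filled points lie past the threshold, and the arrow of Aldh1a3 marks an interval with no upper bound.

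Calls also depended on the variation assumed between samples, which could not be measured. In the edgeR exact test with a biological coefficient of variation assumed at 0.2, Dhrs3 lost its call, and with 0.4 Aldh1a3 alone kept it. Dhrs3 also missed a stricter log2 threshold of 1.

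**Figure D4:**
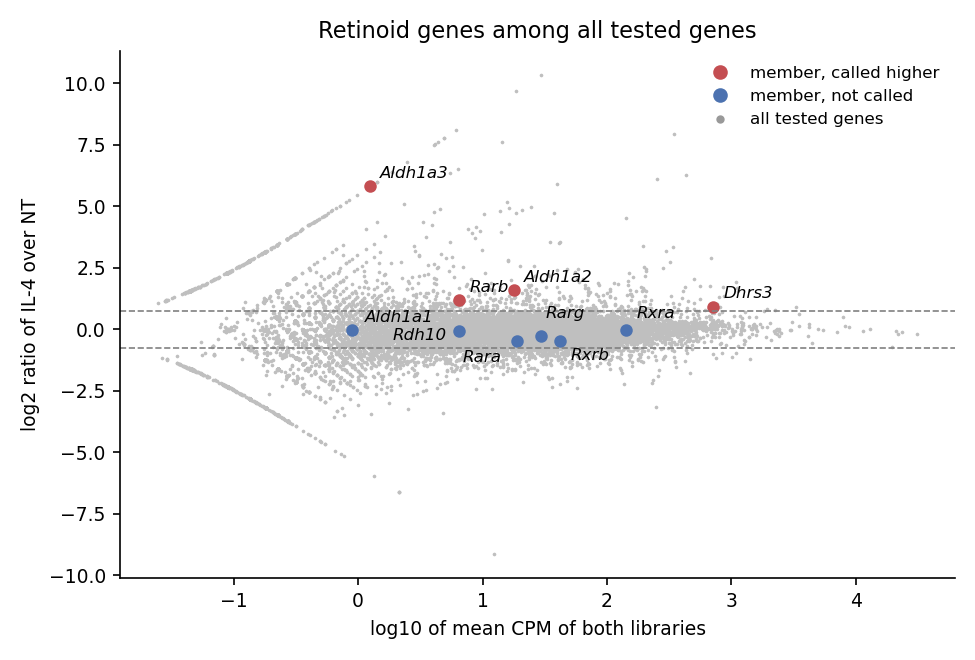
Log2 ratio of IL-4 over NT against the log10 of the mean CPM of both libraries for all 15593 tested genes in grey, with the 10 retinoid genes marked. Dhrs3 sits at the abundant end just above the dashed threshold of 0.75, and Aldh1a3 lies on the curved edge of genes not listed in NT.

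Markers of other cells that can carry these transcripts were examined beside the rises. Mesothelial cells, which line the peritoneum and are a known site of Aldh1a1 and Aldh1a2, were represented by 12 markers, all listed in both libraries at low levels. Their summed abundance was 20.8 CPM (counts relative to the library total) in NT and 32.2 CPM in IL-4. Of them, 3 rose, 2 fell (Msln and Bnc1) and 7 were not called. The rises were Lrrn4 (32 counts in NT and 68 in IL-4), Krt8 (20 and 74) and Krt18 (12 and 79). Bnc1 had 19 counts in NT and 6 in IL-4. Wt1, the defining transcription factor, had 68 counts in NT and 65 in IL-4, and Msln, mesothelin, had 12 and 2. The sum of 8 fibroblast markers was 407 CPM in NT and 397 CPM in IL-4, and 0 of them were called.

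Of 9 dendritic cell markers, 2 rose, Batf3 and Irf4, and the sum of all 9 went from 10.3 to 110 CPM. Batf3 had 9 counts in NT and 345 in IL-4, and Irf4, also known as an IL-4 gene of macrophages, had 30 and 820. The other 7 were not called. Flt3, a defining receptor of dendritic cells, had 1 count in each library. Of 13 adipocyte markers, 6, including Plin1 and Cfd, were listed in neither library, and 2 rose, Adipoq from 0 to 139 counts and Pparg. The adipocyte sum, which holds Fabp4 and Pparg, genes that macrophages also express, was 702 CPM in NT and 980 CPM in IL-4. The eosinophil and mast cell list went from 11.9 to 7.22 CPM, neutrophil markers from 17.5 to 13.8 CPM and lymphocyte markers from 11.9 to 8.89 CPM, with 1 gene called lower in the first and 0 in the others. The part of other cells in the values of Aldh1a2, Rarb and Dhrs3 was not tested.

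Genes of the pathway were taken from 6 lists, of which that of retinoic acid targets includes the members Rarb and Dhrs3. In this list, 16 of 22 genes were tested, 3 were called higher and 0 lower, and the median log2 ratio was 0.43. These values count Rarb and Dhrs3 again. Among all tested genes, 4.07% were called higher and 6.28% lower. The rises were Rarb and Dhrs3, given above, and Tgm2, a transglutaminase that is also a known IL-4 gene, which had 1662 counts in NT and 3071 in IL-4 and a log2 ratio of 0.86. Its call was lost at a stricter log2 threshold of 1, and also when the assumed coefficient of variation was 0.2 or 0.4. Cyp26a1 and Cyp26b1, which break down retinoic acid and are among its most sensitive targets, were listed in neither library, nor was Cyp26c1. Stra6 had 7 counts in each library. Itgb7 and Btg2, the uncalled targets with the highest mean FPKM, had log2 ratios of -0.34 and -0.49. Itga4, an integrin subunit named after its values were seen, had 432.35 counts in NT and 632.45 in IL-4 and a log2 ratio of 0.52 (interval 0.34 to 0.70). It was not called, but with the length trend subtracted its ratio was 1.03 (0.85 to 1.21), past the threshold.

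In the list for uptake, binding and storage, 12 of 17 genes were tested, with 1 called higher and 3 lower. Stra6l, a receptor for retinol-binding protein, fell from 1096 counts to 610, with a log2 ratio of -0.87 (interval -1.02 to -0.73). Lrp1, which takes up retinyl esters with lipoprotein remnants, fell from 21671 counts to 9495. Its log2 ratio was -1.22, or -0.61 and no longer called with the length trend subtracted. The others were picked out after their values were seen, namely Lrp2, which fell from 8 to 1 count, and Rbp4, the retinol carrier of plasma, which rose from 0 to 32 counts. Fabp5, a carrier of retinoic acid and fatty acids, was the most abundant at 2207 FPKM in NT and 1796 FPKM in IL-4, and was not called, and neither was Lpl, a lipase that releases retinol from retinyl esters, at 342 and 213 FPKM. Crabp1, Crabp2 and Lrat, the enzyme that stores retinol as esters, were not listed.

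Among other dehydrogenases and reductases, 16 of 22 genes were tested, 0 were called higher and 2 lower. Akr1b8, an aldo-keto reductase that accepts retinaldehyde, fell from 242.15 counts to 146.34 with a log2 ratio of -0.75, and lost its call with TMM scaling (-0.72). Rdh1, named after its value was seen, fell from 37.44 to 13.60 counts. Akr1b3 and Adh5, the most abundant, had log2 ratios of 0.03 and 0.26. In the list for breakdown of retinoic acid, 2 of 6 genes were tested and 0 were called, with Cyp1b1 at 93 counts in NT and 91 in IL-4 and Cyp2s1 at 5 and 0.

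Of 23 receptor partners and coregulators, all tested, 1 was called higher and 4 lower, with a median log2 ratio of -0.30. Pparg, a partner of Rxra, rose from 1077 counts to 3192 and had a log2 ratio of 1.54. The liver X receptors, also partners of Rxra, were not called, with log2 ratios of -0.06 for Nr1h2 and 0.33 for Nr1h3. The falls were the coactivators Ncoa1 (-1.12) and Crebbp (-0.87), the corepressor component Tbl1xr1 (-1.05) and Trim24 (-0.79), which binds liganded retinoic acid receptors and was the gene the study took forward. All 4 encode long transcripts, and with the length trend subtracted none of the 4 was called, their log2 ratios being -0.67, -0.40, -0.62 and -0.54. The paper also measured Trim24 by QPCR and immunoblot, and reported that IL-4 lowered it in mouse and human macrophages.

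Gata6 and its programme in resident peritoneal macrophages depend on retinoic acid. Of 15 genes in that list, 14 were tested, 2 were called higher and 1 lower, and the median log2 ratio was 0.14. Selp, P-selectin, rose from 25 counts to 72 and had a log2 ratio of 1.48. Alox15, the 12/15-lipoxygenase, which is also a known IL-4 gene and was named after its value was seen, rose from 4 to 29 counts. Padi4, which citrullinates proteins, fell from 112.17 counts to 65.15, with -0.81 on the log2 scale. Gata6 itself had 54 counts in NT and 77 in IL-4, with an interval of the log2 ratio from -0.04 to 1.01 around 0.48, and was not called. Prg4 and Thbs1, the most abundant uncalled genes of the list, had log2 ratios of -0.04 and 0.00.

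**Figure D5:**
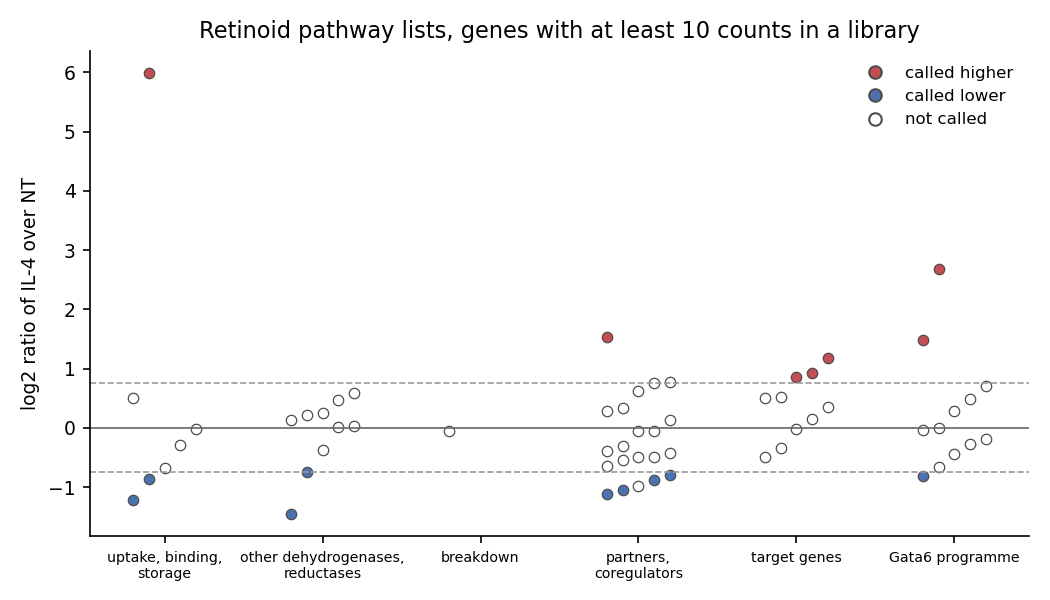
Log2 ratio of IL-4 over NT for genes of the 6 pathway lists with at least 10 counts in a library, each point a gene and dashed lines at 0.75 in either direction. Filled points are called genes, which lie on both sides of 0 in the uptake, partner and Gata6 lists and only above it among the targets, where Rarb and Dhrs3 are 2 of the 3.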

How the data were processed

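RNA of 1 NT and 1 IL-4 library of wild-type peritoneal macrophages was sequenced by BGI on an Illumina HiSeq. The authors used Bowtie for mapping (GRCm38/mm10) and RSEM for quantification, and versions were not given in the sources used here. The deposited expected count of a gene is the RSEM estimate of its reads, unscaled. The deposited FPKM values were scaled by the authors for length and depth. The length column, per the file headers, was used for a length trend only. A gene absent from a table was set to 0.

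Gene numbers were matched to primary symbols of a RefSeq table for GRCm38.p6 (15587 of 15623). Log2 ratios used counts scaled to library totals with 0.5 added. Counts were rounded, 30 genes at 0 in both libraries were left out, and 15593 were tested by an exact two-sided binomial test (smaller tail doubled) with Benjamini-Hochberg adjustment over all. Thresholds were those of the study. Intervals are Clopper-Pearson, Poisson or conditional odds-ratio intervals at 95%, and cover counting error only, since no molecular identifiers were used and PCR copies are not independent molecules. The floor was 3 counts (0.272 CPM in NT, 0.267 CPM in IL-4). With 1 library per group a p-value measures only reads, not animals. For the length trend, genes with 200 or more reads were ranked by closeness in length, and the median ratio of the nearest 200 was taken.

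The members, lists and tests were chosen with earlier results of these data known. Named genes were all 10 members, and from each list the called genes with at least 50 counts and the 2 most abundant others, with further genes named as such. For the called member with the largest ratio, the 3 genes of at least 50 counts nearest in abundance over the 2 libraries were also sought. Calling was tested on simulated data. Alternatives were other scalings (TMM, edgeR 4.0.16; median of ratios, DESeq2 1.42.0; totals without the top 100 genes), FPKM with 0.1 or 1 added, 1 count added, assumed coefficients of variation of 0.1, 0.2 and 0.4, other thresholds, a minimum of 10 counts and the length trend. Python 3.11.15, scipy 1.17.1 and R 4.3.3 were used. Promoter sequences came from RefSeq, in which Aldh1a3 and Rdh10 had no entry. Reads were not analysed here.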

Additional observations from a re-analysis of the deposited data

How the results depend on the processing

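No paired analysis was possible because NT and IL-4 were each sequenced once. All 13 alternatives were run. The main counts were 4 retinoid genes higher, 0 lower, and 635 genes higher and 979 lower among all tested. With a coefficient of variation of 0.4, 1 retinoid gene was called higher, with 65 higher and 8 lower among all genes. With 0.2 the counts over all genes were 390 higher and 423 lower, with FPKM plus 1 they were 391 and 399, and at a log2 threshold of 1 they were 408 and 476, and their causes were not tested. The count of retinoid genes lower was 0 under every alternative. Over the 10 genes, 125 of 130 values under an alternative were called or not called as in the main setting. The other 5 lost a call (Aldh1a2 and Rarb with 0.4, Dhrs3 with 0.2, 0.4 and at a log2 ratio of 1). Over the other named genes, 261 values were called or not called as in the main setting, 36 lost a call and 1 gained one (Lpl at a fold of 1.5). Stra6l, Tgm2, Padi4, Akr1b8, Crebbp and Trim24 each lost theirs with 0.2, with 0.4 and at a log2 ratio of 1. The ratio of Aldh1a3 ranged from 0.78 (FPKM plus 1) to 5.84, as its NT value was 0, and that of Rarb fell to 0.80 with FPKM plus 1, since an added constant shrinks low levels. The other scalings shifted the median gene by at most 0.04, which turns the sign of Aldh1a1 and Rxra, both near 0. Depth limits Aldh1a1, with 10 counts in each library, and Rdh10.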

Other observations

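The 3 genes nearest to Aldh1a3 by abundance in both libraries, taken from genes with at least 50 counts, were Sap25, Mrgprg and Tarm1, likewise not listed in the NT library, with 55.54, 91 and 93 counts in the IL-4 library. For Aldh1a2, a search added after its values were seen gave Myc (102 counts in NT and 313 in IL-4), Cytip (97.87 and 275.30) and Dusp4 (101 and 266). The distances to Aldh1a3 were 0.98, 1.68 and 1.71 on the log2 CPM scale, and since Aldh1a3 with 28 counts is itself under the minimum of 50, these genes stood above it in IL-4. Those to Aldh1a2 were 0.08, 0.12 and 0.18.

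Rbp4 and Adipoq, secreted proteins known from fat tissue, shared with Aldh1a3 an absence from the NT library, and had 32 and 139 counts in the IL-4 library. They were picked out after their values were seen. Pparg was also higher in the IL-4 library, and 6 of 13 adipocyte markers were listed in neither library. Whether these values are linked, or came from fat cells, was not tested.

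Aldh1a2, Dhrs3 and Rarb rose together, whereas Cyp26a1, Cyp26b1, Stra6, Crabp2 and Lrat, other genes commonly used as readouts of retinoic acid, were at or under 7 counts in both libraries. At this depth their change could not be measured.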
